A study of Homo sapiens with 24 samples.

Results

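The vacuolar-type proton pump, or V-ATPase, was followed in HepG2 cells through 10 genes that encode its subunits. They were found in the deposited count table by NCBI gene identifier, and 9 of the 10 had a row among the 11927 gene features of the table. No row carried the identifier of ATP6V0C, the proteolipid c subunit, so it is not analysed here. All 9 genes passed the filter on low counts.

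The V-ATPase is a rotary machine of 2 sectors. The V1 sector, in the cytosol, hydrolyses ATP, and the V0 sector, in the membrane, carries protons into the lysosome, whose hydrolases work at acidic pH. The MiT/TFE transcription factors TFEB and TFE3 are known to bind a palindromic E-box, the CLEAR element, in the promoters of many lysosomal genes, V-ATPase genes included. KEAP1 is the adaptor through which a ubiquitin ligase removes the transcription factor NRF2, whose targets carry antioxidant response elements (AREs).

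HepG2 is a human liver cancer cell line. All cells carried a lentiviral Cas9 construct and were selected with puromycin, with no cloning step described, so each population may hold edited and unedited cells. The groups were sgCtrl, with a guide against the AAVS1 safe-harbour site, sgKEAP1-1 and sgKEAP1-2, with guides against KEAP1, each transfected with a control siRNA pool (siNC) or with a mix of siRNA pools, siTFEB/siTFE3, against both factors. RNA was taken at 72 hours, and each of the 6 groups has 4 libraries, 24 in all. The libraries were made with a 3′ protocol, so a count reflects reads near the end of a transcript, and counts are reported as CPM, counts per unit of TMM-scaled library size, the usual normalised read count. CPM is not corrected for gene length or for the ease of reading a 3′ end, and levels are therefore not compared between genes. The 4 libraries of a group carry different prefixes in their sample descriptions. Each prefix reads like a calendar day and is shared by the 6 libraries of 1 replicate number, 1 from each group. What the prefixes mark, and whether the libraries came from separate cultures, is not stated, so the p-values measure the spread between these libraries, which may be technical. Where blocking on the replicate number changes a call of the 9 genes, the value is given beside the result.

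Library totals ranged from 3527000 to 4600951 reads. KEAP1 itself stood between 77.5 and 93.6 CPM in the 8 sgCtrl libraries, between 48.1 and 63.5 CPM with sgKEAP1-1 and between 69.7 and 90.6 CPM with sgKEAP1-2. Reads at the 3′ end lie outside the edited site and do not test the edit. NQO1, an NRF2 target, stood between 592 and 758 CPM in sgCtrl and between 1498 and 1944 CPM in the 16 KEAP1 guide libraries. TFE3 fell by 1.67 and TFEB fell by 1.92 on the log2 scale with knockdown (adjusted p = 6.33e-08 and 4.91e-06, limma-voom), and TFE3 was 0.52 higher with the KEAP1 guides (adjusted p = 0.0134). Of 9 hepatocyte markers, 7 fell with the KEAP1 guides, where 15.6% of all genes were called lower. The summed level of all 9 was 23464 to 34412 CPM in sgCtrl and 12948 to 19362 CPM in KEAP1 guide libraries. None of 7 markers of leukocytes, endothelium and fibroblasts had a row. The part of the hepatocyte markers' fall in the pump gene differences was not tested. In bulk RNA, fewer cells of a kind and less RNA per cell cannot be told apart. An earlier look at these data, by a rule not given here, set apart replicate 1 of siNC; sgKEAP1-1 and replicate 1 of siTFEB/siTFE3; sgKEAP1-2. Results that turn on them are given with and without both. Chi-square per degree of freedom, a measure of difference beyond counting error, was taken between libraries of a group. It was 14.9 to 26.2 for the former library, 30.9 to 35 for the latter and 3.59 to 13.2 between all others. In the latter library, 4.42% of reads fell on MTRNR2L8, a nuclear gene with mitochondrial ribosomal RNA sequence that was chosen for mention after its values were seen, against 0.375% to 1.23% in the other libraries.

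Promoter windows of the pump genes were searched for the letters of motifs known for TFEB, TFE3 and NRF2. Binding at these promoters was not measured. RefSeq windows (GRCh38.p14) of 300 bases, from 250 before to 50 after an annotated start, were found for 6 of the 10 genes. No window was found for ATP6V1A, ATP6V1B2, ATP6V1C1 or ATP6V1H, so these were not searched for any motif. The windows of ATP6V1G1, ATP6V0B and ATP6V0D1 hold the E-box core CACGTG. The last 100 bases before the start are shown for these 3, with the E-box in capitals (for ATP6V1G1, the whole CLEAR element), and for ATP6V1D and ATP6V1E1, the members that differed most with KEAP1 guides, which have no match.
ATP6V1G1: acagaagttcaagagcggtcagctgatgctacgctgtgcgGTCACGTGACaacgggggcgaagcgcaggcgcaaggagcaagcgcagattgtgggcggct
ATP6V0B: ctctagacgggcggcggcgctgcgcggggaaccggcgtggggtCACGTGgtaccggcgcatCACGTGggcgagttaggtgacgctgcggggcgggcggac
ATP6V0D1: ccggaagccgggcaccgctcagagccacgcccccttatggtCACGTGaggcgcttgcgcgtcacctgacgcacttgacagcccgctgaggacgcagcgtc
ATP6V1D: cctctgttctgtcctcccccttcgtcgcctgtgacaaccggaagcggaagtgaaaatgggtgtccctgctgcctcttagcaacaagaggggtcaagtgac
ATP6V1E1: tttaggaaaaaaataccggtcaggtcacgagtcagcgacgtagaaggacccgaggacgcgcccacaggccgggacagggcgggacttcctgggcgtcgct
The stretches lie at chr9:114587669-114587768 (plus strand) for ATP6V1G1, chr1:43974860-43974959 (plus strand) for ATP6V0B, chr16:67481158-67481257 (minus strand) for ATP6V0D1, chr14:67359805-67359904 (minus strand) for ATP6V1D and chr22:17628823-17628922 (minus strand) for ATP6V1E1. Searched on both strands, the full CLEAR element (CACGTG preceded by GT and followed by AC) occurred in 0.353% of 35116 promoter windows, and CACGTG, which lies inside it, in 7.26%. ATP6V1G1 holds the full element. The E-box of ATP6V0D1 with its flanks differs from the element at 1 of its 10 bases, and the pair in ATP6V0B differ at 2 and 3. The ARE core TGACNNNGC, found in 13.3% of windows, occurred in the whole windows of ATP6V1G1 (1 match), ATP6V0B (1) and ATP6V0D1 (2) and in 1 of the 2 windows of ATP6V0C. The window of ATP6V1D and the pair of ATP6V1E1, of which 1 is shown, hold no match to any of the 3 motifs, which says only that these letters are absent from this stretch.

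Loss of KEAP1 was compared with sgCtrl over both guides and both siRNAs, 16 libraries against 8. Of the 9 pump genes, 5 rose and none fell: ATP6V1D, ATP6V1E1, ATP6V1H, ATP6V1C1 and ATP6V1G1, all of the V1 sector. Among all 11152 genes tested, 15.2% were called higher and 15.6% lower in the same comparison. The median log2 fold change of the 9 was 0.17, against -0.0048 over all genes. The 2 V0 genes among the 9, ATP6V0B and ATP6V0D1, did not pass the test, nor did the V1 core genes ATP6V1A and ATP6V1B2. Outside the 9, the V0 genes ATP6V0E1 and ATP6V0A1 rose in the same comparison and ATP6V0E2 fell, as given below. Without both libraries set apart, and with the replicate number as a block, the same 5 genes passed and ATP6V1B2 passed as lower. The same held in DESeq2 and with library weights.

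ATP6V1D encodes subunit D of the central rotor, which turns inside the V1 head and transmits its motion to the membrane sector (chromosome 14, 67761088 to 67826982, minus strand, GRCh37). Under siNC it stood at 32.0, 36.2, 33.3 and 30.7 CPM in sgCtrl, at 41.6, 36.96, 44.7 and 50.4 CPM with sgKEAP1-1 and at 38.4, 45.5, 52.2 and 51.5 CPM with sgKEAP1-2. After TFEB/TFE3 knockdown it stood at 22.4, 31.9, 25.7 and 33.2 CPM in sgCtrl, at 36.5, 42.8, 43.3 and 35.2 CPM with sgKEAP1-1 and at 40.2, 44.5, 44.8 and 44.7 CPM with sgKEAP1-2. Under either siRNA, all 8 KEAP1 guide libraries lay above all 4 sgCtrl libraries. The share of all genes whose libraries separate in this way was not counted, here or for the genes below. Over both siRNAs ATP6V1D was 0.51 ± 0.09 higher on the log2 scale (SE, adjusted p = 3.83e-05, limma-voom), a 1.42-fold difference, from 85 to 231 reads a library. The groups ordered by mean were siTFEB/siTFE3; sgCtrl at 28.3 ± 5.12 CPM, siNC; sgCtrl at 33.03 ± 2.35, siTFEB/siTFE3; sgKEAP1-1 at 39.4 ± 4.22, siNC; sgKEAP1-1 at 43.4 ± 5.64, siTFEB/siTFE3; sgKEAP1-2 at 43.6 ± 2.22 and siNC; sgKEAP1-2 at 46.9 ± 6.42 (SD, n = 4 each). Neighbours in this order overlapped throughout.

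ATP6V1E1 encodes subunit E of the peripheral stalk, the stator that holds the V1 head still while the rotor turns (chromosome 22, 18074902 to 18111515, minus strand, GRCh37). Under siNC it stood at 75.7, 95.5, 91.9 and 78.8 CPM in sgCtrl, at 119.7, 108.9, 114.6 and 123.9 CPM with sgKEAP1-1 and at 105.6, 132.4, 137.6 and 109.1 CPM with sgKEAP1-2. After knockdown it stood at 71.3, 73.6, 76.4 and 81.8 CPM in sgCtrl, at 82.9, 97.1, 84.3 and 103.2 CPM with sgKEAP1-1 and at 97.8, 111.7, 126.8 and 105.2 CPM with sgKEAP1-2. Again no KEAP1 guide library overlapped the sgCtrl libraries of the same siRNA. ATP6V1E1 was 0.44 ± 0.07 higher (SE, adjusted p = 1.36e-05), a 1.36-fold difference. Its group means ran in nearly the same order, from 75.8 ± 4.50 CPM in siTFEB/siTFE3; sgCtrl to 121.2 ± 16.2 CPM in siNC; sgKEAP1-2 (SD, n = 4), with neighbours overlapping. The calls of ATP6V1D and ATP6V1E1 held under all 37 alternatives, with log2 fold changes of 0.45 to 0.57 and 0.42 to 0.47.

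**Figure D1:**
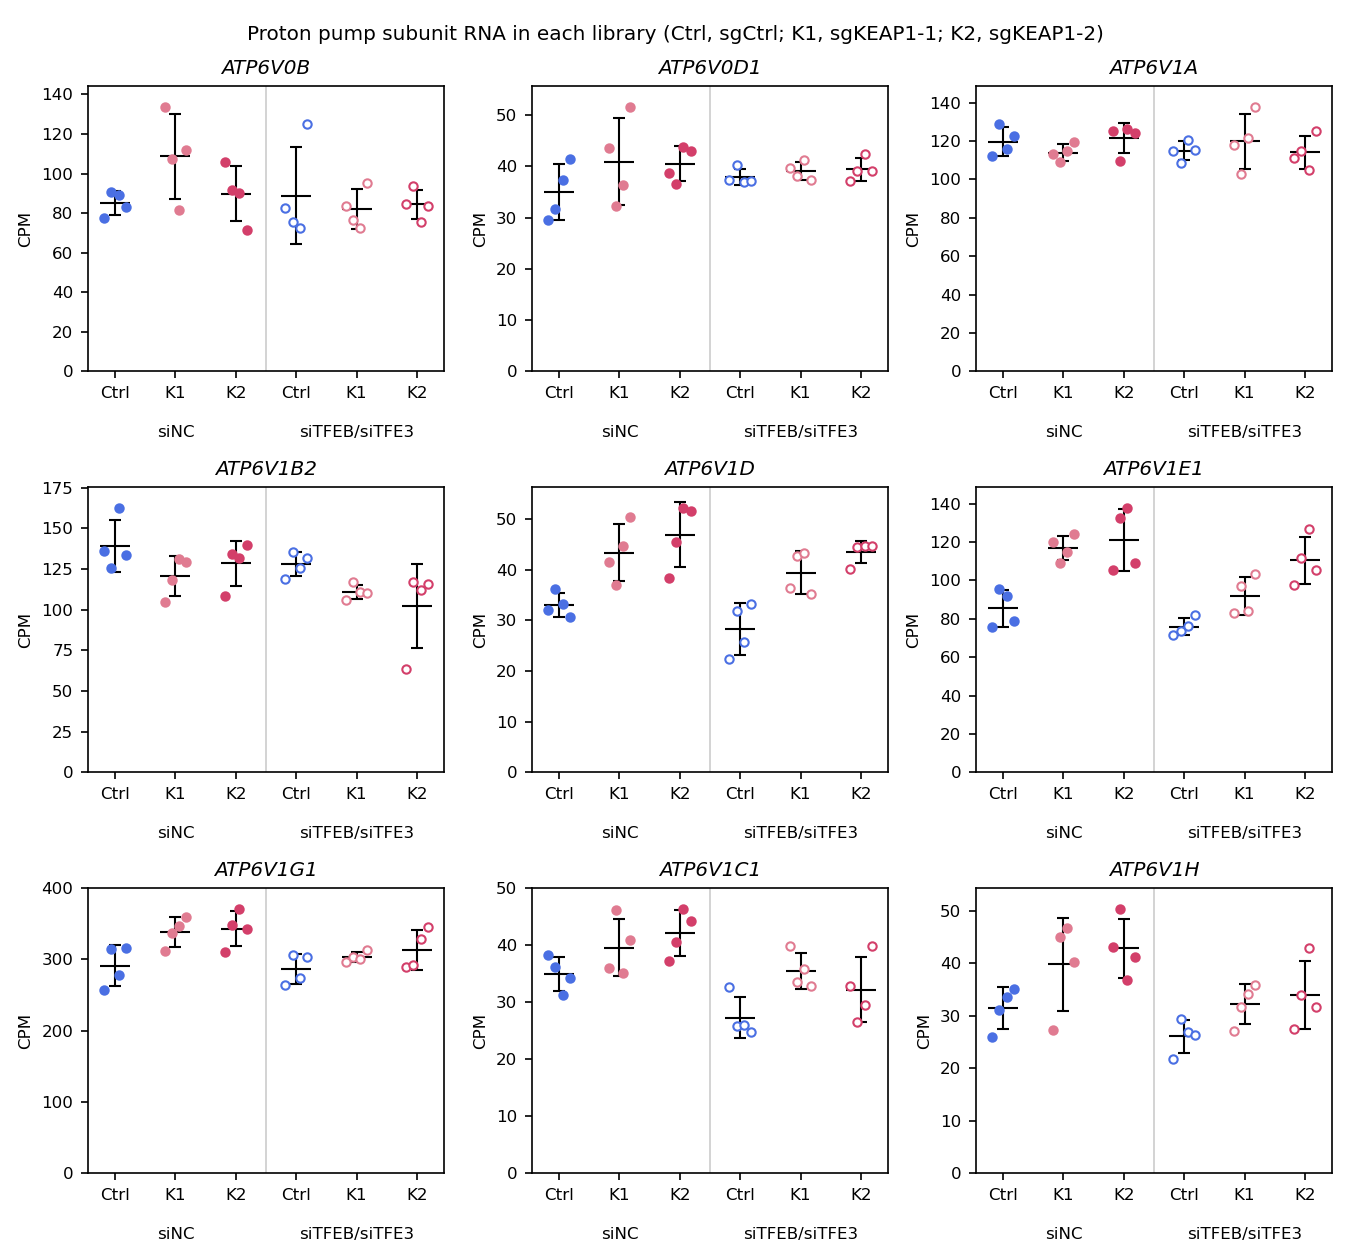
CPM of the 9 pump genes in each of the 24 libraries, by guide (Ctrl, sgCtrl; K1, sgKEAP1-1; K2, sgKEAP1-2) and siRNA, with the group mean and SD as a bar. For ATP6V1D and ATP6V1E1 all KEAP1 guide libraries lie above the sgCtrl libraries of the same siRNA, while 1 library of ATP6V1B2, at 63.4 CPM, lies far below the rest of its group.

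ATP6V1H, the subunit that holds free V1 inactive and is needed for the assembled pump, had a median of 28.2 CPM in sgCtrl (21.8 to 35.1) and of 36.3 CPM with KEAP1 guides (27.1 to 50.3). It rose by 0.36 ± 0.10 (SE, adjusted p = 0.00958). In siNC; sgKEAP1-1 its values were 27.2, 45.0, 46.8 and 40.3 CPM, the low one being replicate 1, which stands apart, and without both such libraries the difference was 0.43 (adjusted p = 0.000319). ATP6V1C1, the C subunit that clamps the peripheral stalks to the membrane sector, had a median of 32.0 CPM in sgCtrl (24.8 to 38.4) and of 36.7 CPM with KEAP1 guides (26.6 to 46.3). It rose by 0.26 ± 0.08 (SE, adjusted p = 0.0176). ATP6V1G1, the G subunit that pairs with E in each stator stalk, had a median of 290 CPM in sgCtrl (257.5 to 315.8) and of 321 CPM with KEAP1 guides (289.3 to 370.5), and rose by 0.17 ± 0.05 (SE, adjusted p = 0.0204). Over both siRNAs the libraries of these 3 genes overlap between guides. All 16 KEAP1 guide libraries lay above the mean of sgCtrl for ATP6V1G1, and 15 of 16 for ATP6V1H and for ATP6V1C1. The ATP6V1G1 call was lost without siNC; sgCtrl replicate 1 (adjusted p = 0.0615), siNC; sgCtrl replicate 3 (0.0568) or siTFEB/siTFE3; sgCtrl replicate 1 (0.053). It was also lost without the 6 libraries numbered 3 (0.234) or those numbered 4 (0.0601). The ATP6V1C1 call was lost without those numbered 2, 3 or 4 (0.0567, 0.125 and 0.14), and the ATP6V1H call without those numbered 2 or 3 (0.0574 and 0.053).

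The A and B subunits form the nucleotide-binding head of V1, and neither passed the test. ATP6V1A, the catalytic A subunit, had a median of 115.6 CPM in sgCtrl (108.7 to 128.9) and of 116.4 CPM with KEAP1 guides (102.8 to 137.7). Its log2 fold change was -0.0014, with a 95% interval of -0.12 to 0.12. ATP6V1B2, the B subunit beside it, had a median of 132.5 CPM in sgCtrl (119.2 to 162.5) and of 116.5 CPM with KEAP1 guides (63.4 to 139.9), and differed by -0.22 ± 0.08 on the log2 scale (SE, adjusted p = 0.0514). In 1 of 16 KEAP1 guide libraries it exceeded the mean of its sgCtrl. After knockdown its 4 sgCtrl libraries, at 119.2, 135.7, 125.8 and 131.6 CPM, lay above the 4 with sgKEAP1-1, at 106.1, 116.9, 111.0 and 110.5 CPM, and the 4 with sgKEAP1-2, at 63.4, 117.4, 112.5 and 116.0 CPM. The 63.4 CPM belongs to replicate 1, a library that stands apart. Leaving out that library alone made the difference smaller, -0.17, and brought it past the threshold (adjusted p = 0.031). It also passed without siNC; sgCtrl replicate 2 (adjusted p = 0.0497), siNC; sgKEAP1-2 replicate 4 (0.0487) or siTFEB/siTFE3; sgKEAP1-2 replicate 2, 3 or 4 (0.0345, 0.045 and 0.0402), and without all 6 libraries numbered 1 (0.0464). With the replicate block ATP6V1B2 fell by 0.22 (adjusted p = 0.0219), and with sgKEAP1-2 after knockdown it fell by 0.34 (0.0381), against -0.35 (0.0782) without the block. Over both guides and siRNAs its difference also passed in DESeq2, at -0.21 (adjusted p = 0.0488), and with library weights, at -0.18 (0.0224).

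Of the V0 members, ATP6V0B, a proteolipid of the proton-carrying ring, had a median of 82.7 CPM in sgCtrl (72.5 to 124.9) and of 87.5 CPM with KEAP1 guides (71.6 to 133.6). ATP6V0D1, which joins the rotor to that ring, had a median of 37.2 CPM in sgCtrl (29.5 to 41.5) and of 39.1 CPM with KEAP1 guides (32.2 to 51.6). Their log2 fold changes were 0.07 (95% interval -0.13 to 0.26) and 0.14 (-0.03 to 0.30). Both genes overlap between groups.

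**Figure D2:**
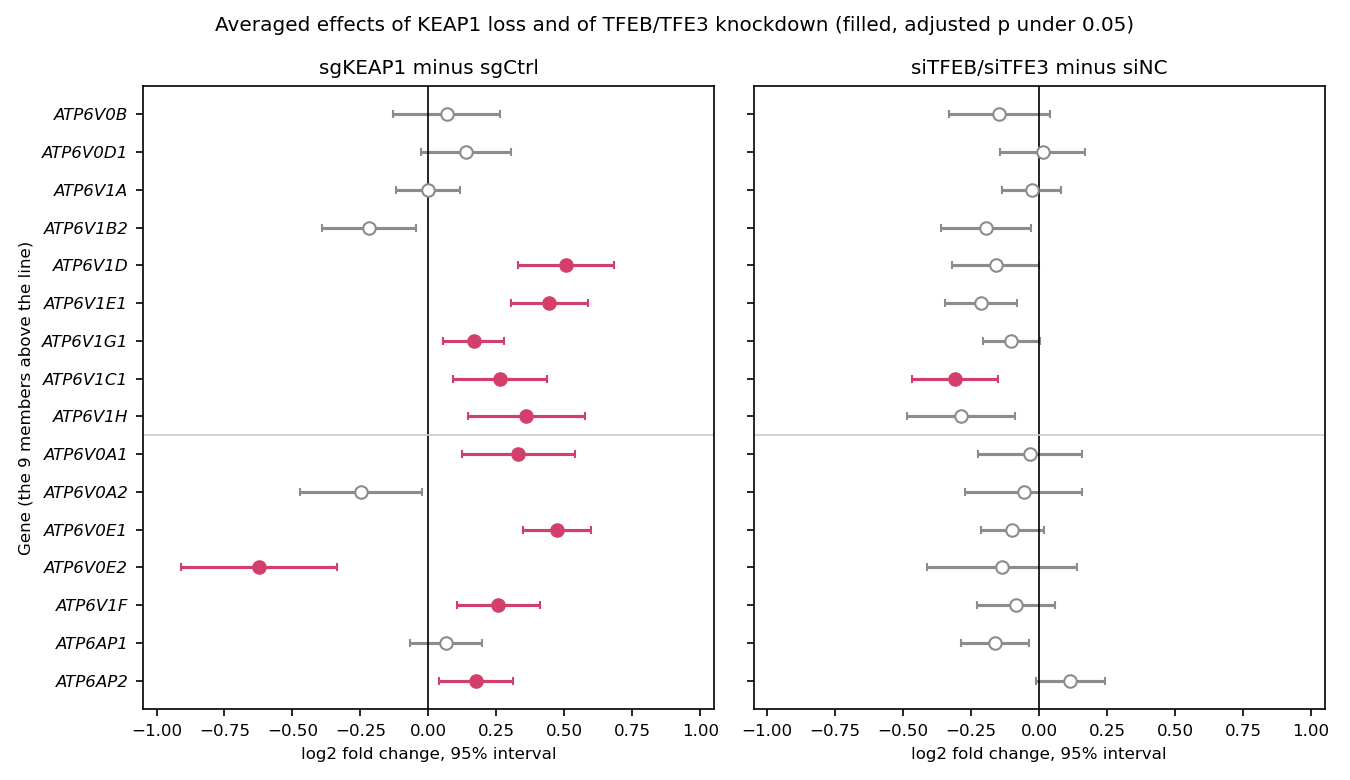
log2 fold change with 95% interval of the 9 pump genes and of 7 other subunits for KEAP1 guides against sgCtrl (left) and for siTFEB/siTFE3 against siNC (right), each averaged over the other factor, with filled points past an adjusted p of 0.05. With KEAP1 guides 5 of the 9 are filled on the positive side, and with knockdown ATP6V1C1 alone is filled, on the negative side.

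Knockdown of TFEB and TFE3 was compared with siNC over the 3 guides, 12 libraries against 12, to ask how far the pump genes depend on these factors. ATP6V1C1 fell by 0.31 on the log2 scale (SE 0.08, adjusted p = 0.027), and it was the 1 gene of 9 past the threshold, where 1.39% of all genes were called lower and 0.942% higher. Limma-voom gave 4 of the 9 an unadjusted p under 0.05, ATP6V1C1, ATP6V1E1, ATP6V1H and ATP6V1B2, all lower. Of all 11152 genes, 775 were lower and 673 higher at that level. The median log2 fold change of the 9 was -0.16, against 0.0095 over all genes, and 8 of 9 values were negative. In sgCtrl cells ATP6V1C1 stood at 38.4, 36.2, 31.3 and 34.2 CPM with siNC and at 32.6, 25.8, 25.9 and 24.8 CPM after knockdown. With sgKEAP1-1 it stood at 36.0, 46.1, 35.2 and 41.0 CPM with siNC and at 39.8, 33.6, 35.8 and 32.8 CPM after knockdown. With sgKEAP1-2 it stood at 37.3, 40.6, 46.3 and 44.2 CPM with siNC and at 32.8, 26.6, 29.5 and 39.8 CPM after knockdown. In each background 1 or 2 of the 4 knockdown libraries overlapped siNC, and 11 of the 12 lay below the siNC mean of their guide. The call is close to the threshold. It was lost, at adjusted p-values of 0.051 to 0.0587, without any 1 of siNC; sgCtrl replicate 2, siNC; sgKEAP1-2 replicates 3 and 4, siTFEB/siTFE3; sgCtrl replicates 2 and 3, or replicate 2 of either KEAP1 guide after knockdown. Without all 6 libraries of 1 replicate number it was lost for numbers 2, 3 and 4 (adjusted p = 0.355, 0.25 and 0.125).

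The other pump genes had these values with knockdown. ATP6V1E1 differed by -0.21 ± 0.06 on the log2 scale (SE, adjusted p = 0.0773), with 11 of 12 knockdown libraries below the siNC mean of their guide, and without siTFEB/siTFE3; sgKEAP1-2 replicate 3 its adjusted p was 0.0459. With the replicate block ATP6V1E1 fell by 0.22 (adjusted p = 0.0478), which makes 2 calls with knockdown. It also passed in DESeq2 (adjusted p = 0.0424) and with library weights (0.0341). ATP6V1H had -0.29 ± 0.10 (SE, adjusted p = 0.132), also with 11 of 12 below. Without siNC; sgKEAP1-1 replicate 1 its adjusted p was 0.0232, without all 6 libraries numbered 1 it was 0.0439, and without both libraries that stand apart it was 0.0279. ATP6V1H also passed with library weights (adjusted p = 0.017). ATP6V1B2 had -0.20 ± 0.08 (adjusted p = 0.262), with 12 of 12 below, ATP6V1D -0.16 ± 0.08 (0.386) and ATP6V0B -0.15 ± 0.09 (0.545). ATP6V1G1, the only gene with the full CLEAR element among the 6 with a promoter window, had -0.10 ± 0.05 (adjusted p = 0.407). Its 95% interval was -0.21 to 0.0036. ATP6V1C1, ATP6V1H, ATP6V1B2 and ATP6V1A had no window and were not searched. ATP6V0D1, with 1 E-box, had 0.01 (95% interval -0.14 to 0.17), and ATP6V1A had -0.03 (-0.14 to 0.08). Within single guide backgrounds no pump gene passed, while 0.0179% of all genes did in sgCtrl, 0.0897% in sgKEAP1-1 and 0.359% in sgKEAP1-2. At an unadjusted p under 0.05 limma-voom gave 1, 2 and 2 of the 9 genes, where it gave 516, 901 and 1169 of all 11152, and edgeR and DESeq2 also called 0. Among the 9 genes in all guide backgrounds, the clearest separation was that of ATP6V1E1 in sgKEAP1-1, chosen after the values were seen. Its 4 knockdown libraries all lay below the 4 siNC libraries, with a log2 fold change of -0.35 (adjusted p = 0.298).

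Each guide was then set against sgCtrl under each siRNA, 4 libraries against 4. The guides share the sgCtrl libraries, so their values are given side by side and not as independent evidence. Under siNC, sgKEAP1-1 gave 1 call, ATP6V1E1 at 0.46 (adjusted p = 0.00678), where 6.01% of all genes were higher, and sgKEAP1-2 gave 2, ATP6V1E1 at 0.50 (0.00232) and ATP6V1D at 0.51 (0.0103), where 7.58% were higher. ATP6V1D with sgKEAP1-1 was at 0.39 (adjusted p = 0.0632), and at 0.0360 without siNC; sgKEAP1-1 replicate 2. After knockdown, sgKEAP1-1 gave ATP6V1D at 0.49 (adjusted p = 0.0234), where 5.69% of all genes were higher, and sgKEAP1-2 gave ATP6V1D at 0.64 (0.0013) and ATP6V1E1 at 0.54 (0.00092), where 10.6% were higher. ATP6V1E1 with sgKEAP1-1 was then at 0.28 (adjusted p = 0.138), although its libraries did not overlap. The ATP6V1D call with sgKEAP1-1 was lost without siTFEB/siTFE3; sgCtrl replicate 1 or 3 or siTFEB/siTFE3; sgKEAP1-1 replicate 2 or 3 (adjusted p of 0.0828 to 0.0989). Without all 6 libraries of 1 number it was lost for numbers 1, 2 and 3 (adjusted p = 0.0506, 0.118 and 0.285). Under siNC, the ATP6V1D call with sgKEAP1-2 was lost without number 3 or 4 (0.135 and 0.103) and the ATP6V1E1 call with sgKEAP1-1 without number 4 (0.101). With the replicate block ATP6V1D also passed with sgKEAP1-1 under siNC, at 0.39 (adjusted p = 0.0452), and ATP6V1G1, at 0.24 (0.0302), and ATP6V1H, at 0.42 (0.0408), passed with sgKEAP1-2 under siNC.

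Without both libraries that stand apart, the calls under siNC were 4 with each guide, ATP6V1D, ATP6V1E1, ATP6V1G1 and ATP6V1H. ATP6V1H was then 0.49 higher with sgKEAP1-1 and 0.44 higher with sgKEAP1-2 (adjusted p = 0.0186 and 0.0181), against 0.32 and 0.44 with all libraries (0.26 and 0.0718). After knockdown, ATP6V1H also passed with sgKEAP1-2 without both libraries, at 0.46 (adjusted p = 0.024), against 0.38 with all libraries (0.129).

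**Figure D3:**
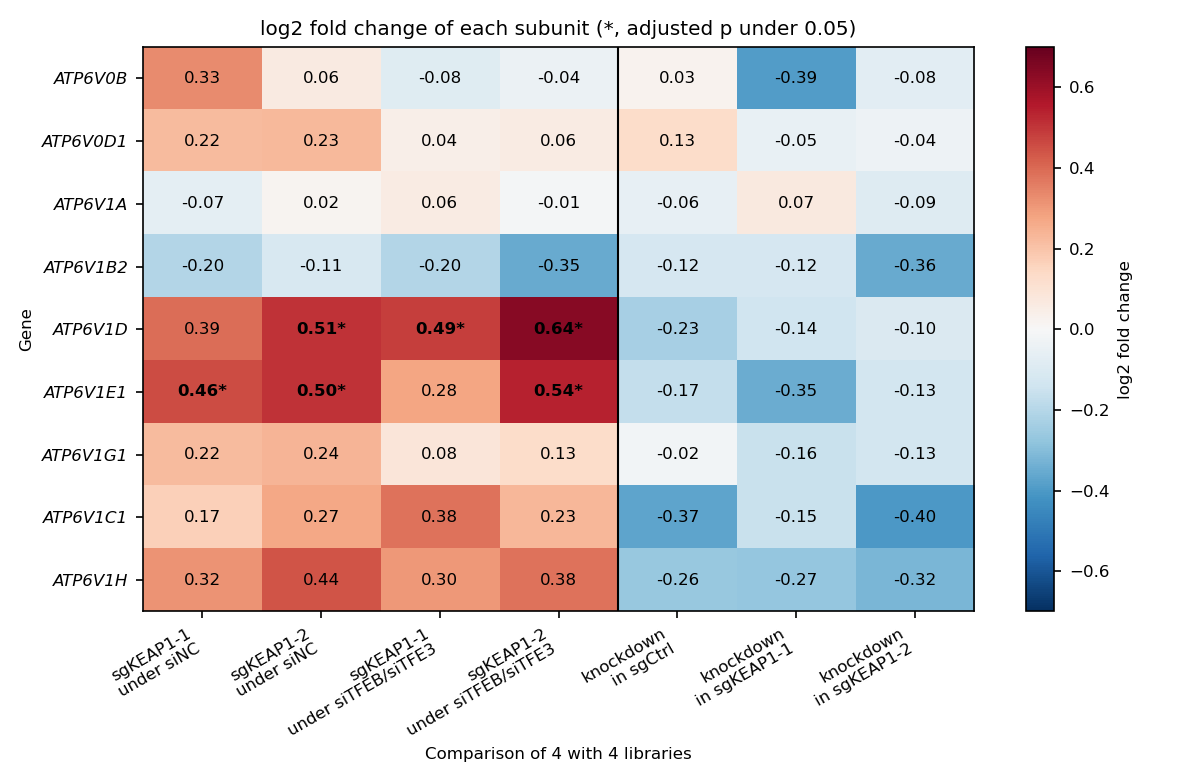
log2 fold change of the 9 pump genes in the 7 comparisons of 4 with 4 libraries, with an asterisk at an adjusted p under 0.05. ATP6V1D and ATP6V1E1 carry all 6 asterisks, none of them in the 3 knockdown columns, and ATP6V1B2 is negative in all 7 columns.

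Whether the KEAP1 effect differed after knockdown was tested as the interaction, the KEAP1 effect under siTFEB/siTFE3 minus that under siNC, over both guides. No pump gene passed in limma-voom, edgeR or DESeq2, none had an unadjusted p under 0.05, and 0% of all genes passed. The interaction was 0.11 for ATP6V1D (95% interval -0.24 to 0.46) and -0.07 for ATP6V1E1 (-0.36 to 0.21), on the log2 scale. For ATP6V1G1 it was -0.12 (-0.35 to 0.10) and for ATP6V0B -0.26 (-0.65 to 0.14). These intervals are wide beside the KEAP1 effects themselves. The guides differed from each other in no pump gene, where 0.117% of all genes did, with 0 at an unadjusted p under 0.05 and 0 in edgeR and DESeq2. The largest difference was 0.15 for ATP6V1E1, higher with sgKEAP1-2 (95% interval -0.0048 to 0.31).

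The rest of the pump was read from a list of 16 further and accessory subunits, of which 10 had a row. With KEAP1 guides 5 of the 10 rose and 1 fell, with a median of 0.12, against the background of 15.2% higher and 15.6% lower. In V0, ATP6V0E1 and ATP6V0E2, which encode alternative forms of the small e subunit, moved in opposite directions. ATP6V0E1 stood at 178.3, 205.5, 179.7 and 196.7 CPM in siNC; sgCtrl and at 237.2 to 299.9 CPM in the 8 siNC libraries with a KEAP1 guide, and at 195.3, 165.6, 159.2 and 203.7 CPM in siTFEB/siTFE3; sgCtrl against 227.4 to 272.8 CPM. All 16 KEAP1 guide libraries lay above all 8 sgCtrl libraries, and it rose by 0.47 ± 0.06 (SE, adjusted p = 6.75e-07). ATP6V0E2 stood at 206.0, 167.3, 188.3 and 110.8 CPM in siNC; sgCtrl and at 216.1, 134.7, 149.7 and 176.4 CPM in siTFEB/siTFE3; sgCtrl. With KEAP1 guides its median was 104.3 CPM (73.8 to 196.1), and it fell by 0.62 (SE 0.14, adjusted p = 0.00099), with overlap. In all 6 groups replicate 1 held the highest ATP6V0E2 value. Among the libraries numbered 1, the sgCtrl values were 206.0 and 216.1 CPM and those with KEAP1 guides 116.0 to 196.1 CPM.

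**Figure D4:**
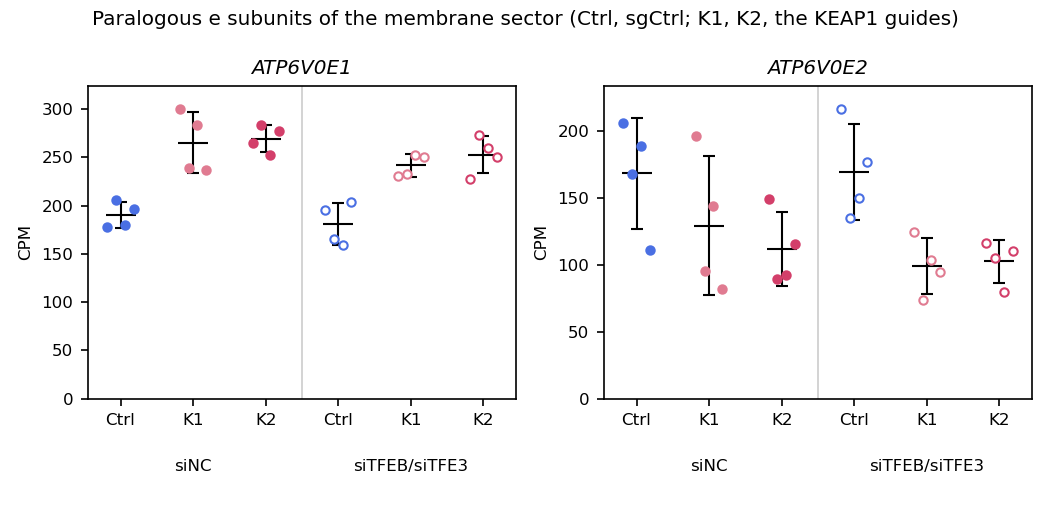
CPM of ATP6V0E1 and ATP6V0E2 in each of the 24 libraries, with the group mean and SD as a bar. ATP6V0E1 lies higher with the KEAP1 guides in all 16 libraries, while for ATP6V0E2 10 of the 16 lie below all 8 sgCtrl libraries and the highest, at 196.1 CPM, lies among them.

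ATP6V0A1, the a subunit that forms the proton half-channels, rose by 0.33 ± 0.10 (adjusted p = 0.0133), from a median of 30.6 CPM in sgCtrl to one of 41.3 CPM. ATP6V1F, a rotor subunit beside D, rose by 0.26 ± 0.07 (adjusted p = 0.00927), with 14 of 16 KEAP1 guide libraries above all sgCtrl libraries. ATP6AP2, the accessory subunit also known as the prorenin receptor, rose by 0.18 ± 0.07 (adjusted p = 0.0436). ATP6V1E2, a paralog of ATP6V1E1 known from testis, rose by 0.92 ± 0.27 (adjusted p = 0.00925) at only 4 to 41 reads a library. With knockdown none of the 10 passed, by limma-voom, and 2 had an unadjusted p under 0.05.

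Of 12 assembly factors and regulators, 3 rose and 1 fell with KEAP1 guides, where 15.2% of all genes were higher and 15.6% lower. ATP6AP1L, a gene related to the accessory subunit ATP6AP1, stood between 4.21 and 14.1 CPM in sgCtrl and between 15.2 and 30.3 CPM in the 16 KEAP1 guide libraries, and rose by 1.20 ± 0.18 (SE, adjusted p = 7.3e-06). The TLDc-domain genes, a family known to bind the V-ATPase, did not move together. MEAK7 rose by 0.47 ± 0.13 (adjusted p = 0.0059) and TLDC2, at 0 to 27 reads a library, by 1.22 ± 0.39 (0.0193), while OXR1 fell by 0.44 (SE 0.08, adjusted p = 2e-04), from a median of 25.3 to one of 18.8 CPM. None of the 12 passed with knockdown, and 1 had an unadjusted p under 0.05.

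Other lysosomal genes give the setting. Their counts stand beside 15.2% of all genes called higher and 15.6% lower with KEAP1 guides, and 1.39% lower with knockdown. Of 27 hydrolases tested, 14 rose with KEAP1 guides, led by adjusted p by GLA at 1.41, AGA at 0.78 and CTSB at 0.69, and 2 fell, CTSH and SMPD1 (median 0.27), and 5 fell with knockdown. The smallest adjusted p-values with knockdown were those of ASAH1, which fell by 0.50, LIPA, which fell by 0.78, and CTSB, which fell by 0.45. Of 10 lysosomal ion channels and exchangers 3 rose, CLCN3, CLCN7 and OSTM1, and 2 fell, with none past the threshold with knockdown. Of 12 lysosomal membrane proteins 5 rose, CD63, LAMP1, SCARB2, TMEM192 and LAPTM4B, 1 fell, LAPTM4A, and none passed with knockdown. At an unadjusted p under 0.05, 2 channels and 4 membrane proteins had a knockdown difference. Names in this paragraph beyond GLA, AGA, CTSB, ASAH1 and LIPA were chosen after their values were seen.

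Across the 24 libraries, which share the 6 groups, the pump genes varied together only in part. Pearson's r between pairs of the 9 genes ranged from -0.089 to 0.83 over 36 pairs, with a median of 0.19, and was highest between ATP6V1D and ATP6V1E1. After group means were taken out the median was 0.14 and the highest 0.56. The genes whose log2 CPM was most like the mean standardised profile of the 9, out of 10529 with a mean of at least 10 reads, were CTSB (r = 0.92), PSAP (0.90), SPON2 (0.89), NOS3 (0.87) and CD63 (0.87). Of these genes, CTSB, PSAP and CD63 encode cathepsin B, the precursor of the saposins and a tetraspanin of late endosomes. SPON2 and NOS3 are in none of the lysosomal lists above, and neither is PSAP. The pump genes' mean standardised profile was lowest in siTFEB/siTFE3; sgCtrl, at -0.72 ± 0.31, and highest in siNC; sgKEAP1-2, at 0.71 ± 0.30 (SD, n = 4, in units of each gene's SD over the libraries).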

How the data were processed

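RNA of 24 HepG2 libraries was analysed. Per the labels and the study's methods, QuantSeq 3′ reads were checked with FastQC (0.72), trimmed with cutadapt (1.16), aligned with STAR (2.7.5b) and counted with featureCounts (1.6.3), versions being those of the submitters' processing notes. The methods name hg19 (GRCh37) and the notes hg38. The strand setting and annotation are not given in the sources used here. The values the authors deposited are raw counts, unnormalised, in 13446 rows, none with a total under 15 reads. Rows without a gene identifier (1414, with 1.35% to 2.57% of reads) were left out of scaling and tests. Gene coordinates are from an annotation of GRCh37.

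Counts were filtered with filterByExpr by group (11152 genes kept), scaled by TMM and fitted on 6 group means by limma-voom, which the study's methods name (R 4.3.3, edgeR 4.0.16, limma 3.58.1). Tests were two-sided, with Benjamini-Hochberg adjustment over all genes and a threshold of 0.05, for 11 contrasts. An averaged KEAP1 or knockdown effect is the mean of the single contrasts. CPM uses TMM-scaled totals, and log2 CPM a prior count of 2. The code was tested on simulated data. Alternatives were edgeR's quasi-likelihood test, DESeq2 (1.42.0), other scaling factors, no filter, library weights, a replicate block, the compared groups alone, and libraries left out.

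The members and gene lists were chosen with earlier results of these data known. Named genes were the members, KEAP1, TFEB, TFE3, NFE2L2 and NQO1, every other subunit or assembly factor past the threshold, at most 3 genes per averaged contrast with the smallest adjusted p from the other lysosomal lists, and the 5 genes most like the members' profile. Values of some list genes are not reported here. NFE2L2, the NRF2 gene, had a log2 fold change of -0.24 with KEAP1 guides (adjusted p = 0.0397). Libraries of a group differed by more than counting error (chi-square per degree of freedom of at least 3.59). The description prefixes, which read like days, tie libraries of 1 replicate number across groups. A fit with the numbers as a block, which pairs the libraries, was therefore run as an alternative. The correlation of deviations from the group means was -0.163 to 0.43 over 60 same-numbered pairs (median 0.046, 20 over 0.1) and -0.309 to 0.254 over 180 other pairs (median -0.025, 17 over 0.1). The fit without the block is the main one, since the study's methods name none. Reads carry no molecular identifiers and are not independent molecules.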

Additional observations from a re-analysis of the deposited data

Results flagged for a closer look

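In 54 sets of 4 libraries, 1 for each pump gene and group, the highest or lowest library was tested for its distance from the rest by Dixon's ratio, which chance passes in about 1 of 20 sets. It passed in 5. ATP6V1B2 in siTFEB/siTFE3; sgKEAP1-2 replicate 1 was at 63.4 CPM, with the others at 112.5 to 117.4 CPM. In the same library, which stands apart from the rest, ATP6V1D was at 40.2 CPM, with the others at 44.5 to 44.8 CPM. ATP6V0D1 in siTFEB/siTFE3; sgCtrl replicate 2 was at 40.3 CPM, with the others at 37.1 to 37.4 CPM. ATP6V1C1 in siTFEB/siTFE3; sgCtrl replicate 1 was at 32.6 CPM, with the others at 24.8 to 25.9 CPM. ATP6V1A in siNC; sgKEAP1-2 replicate 2 was at 109.8 CPM, with the others at 124.3 to 126.5 CPM.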

How the results depend on the processing

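Among the 12 called fold changes, the directions held under all 37 alternatives. ATP6V1D and ATP6V1E1 with KEAP1 guides over both siRNAs, both genes with sgKEAP1-2 after knockdown, and ATP6V1E1 with sgKEAP1-2 under siNC also kept their side of the threshold in all 37. The averaged KEAP1 count of 5 ranged from 2 to 6 when libraries were left out, the averaged knockdown count of 1 from 0 to 2, sgKEAP1-1 under siNC (1) from 0 to 2, sgKEAP1-1 after knockdown (1) from 0 to 1, sgKEAP1-2 under siNC (2) from 1 to 3 and sgKEAP1-2 after knockdown (2) from 2 to 3. The averaged KEAP1 count was 6 in DESeq2, with library weights and without both libraries set apart, the added call being ATP6V1B2 as lower. The averaged knockdown count was 2 in DESeq2, 3 with library weights and 2 without both libraries set apart. The count for sgKEAP1-1 under siNC was 2 in DESeq2, 4 with weights and 4 without both. That for sgKEAP1-2 under siNC was 4 with weights and 4 without both. After knockdown the count was 2 with weights for sgKEAP1-1 and 3 without both for sgKEAP1-2. The cause was not tested. Leaving out all 6 libraries of 1 number, which also removes samples, ended the averaged KEAP1 calls of ATP6V1C1 (numbers 2, 3 and 4), ATP6V1H (2 and 3) and ATP6V1G1 (3 and 4) and the averaged knockdown call of ATP6V1C1 (2, 3 and 4). Low counts limit ATP6V1E2 and TLDC2.

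With the replicate block the counts were 6 for the averaged KEAP1 effect, 2 for averaged knockdown, 2 for sgKEAP1-1 and 4 for sgKEAP1-2 under siNC, and 1 and 3 for these guides after knockdown. The block ended no call of the 9 genes and changed none beyond those named with it above.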
